A study of Mus musculus with 17 samples.

Results

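Eosinophils sorted from the esophagus of Pirb knockout mice were compared with eosinophils from wildtype littermates on 6 arrays, 3 of each genotype, out of 17 arrays in the series. The arrays were chosen by their titles, which give the esophagus, the genotype and Dox. All mice carried the CC10-IL13 transgene, were male or female and were 6 to 8 weeks old, and the esophageal groups were CC10-IL13Tg/Pirb-/- and CC10-IL13Tg/Pirb+/+. All 6 samples came from mice fed Dox (doxycycline) for 2 weeks, which turns on the transgene and its product, interleukin-13 (IL-13). The CC10 promoter drives the transgene, and CC10 is a protein of the airway club cell. No esophageal array without Dox is analysed here, so each value describes the genotypes under IL-13 only. The sort required CD45, Siglec-F and CCR3 on the surface, and no label says whether a replicate is 1 animal or a pool. The p-values therefore measure the spread between these samples, which may be technical.

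PIR-B, the product of Pirb, is an inhibitory receptor of myeloid cells that binds MHC class I molecules. Its cytoplasmic tyrosine motifs recruit the phosphatases SHP-1 and SHP-2, which dampen signals from activating receptors, cytokine receptors and integrins. IL-13 drives eosinophils into the esophagus in allergic disease, and tissue eosinophils release granule proteins, cytokines and factors that remodel the tissue. The purpose given in the series title is to learn how PIR-B limits the effector functions of these cells.

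Each value is a log2 distance to the middle array of the same probe set, so 0 is the middle of the series and not a low level. Presence or absence of a marker cannot be read from such values. The 3 knockout arrays resembled one another more (r across genes 0.79 to 0.83) than the 3 wildtype arrays did (0.55 to 0.68). Wildtype replicate 1 had a mean r of 0.704 with the knockout arrays and of 0.593 with its own group. Several results are therefore also given without wildtype replicate 1.

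**Figure D1:**
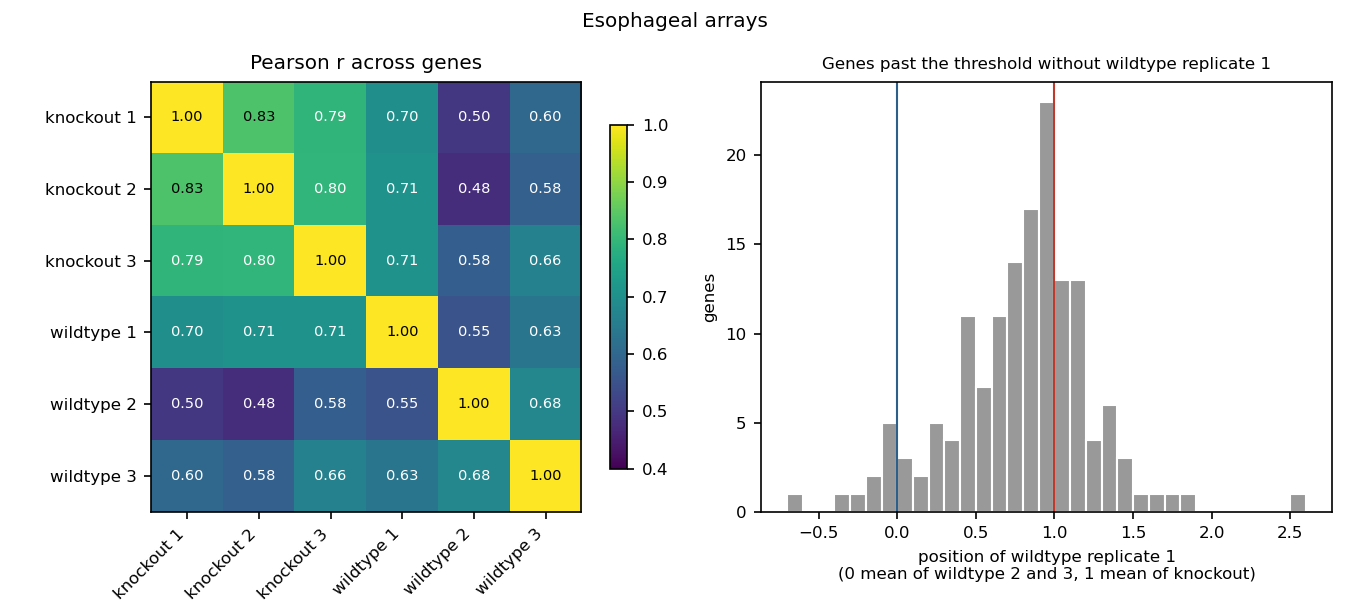
Left, Pearson r across genes between the 6 esophageal arrays, with the colour scale running from 0.4 to 1. Right, number of genes (y) by the position of wildtype replicate 1 (x), where 0 is the mean of wildtype replicates 2 and 3 and 1 the knockout mean, for the 151 genes that passed the threshold when replicate 1 was left out. Most genes lie nearer to 1 than to 0, at a median position of 0.851. The genes were selected by how far wildtype replicates 2 and 3 lay from knockout, so these positions are partly set by that selection.

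Pirb itself did not separate the genotypes. The knockout arrays stood at 0.77, 1.20 and 1.02 and the wildtype arrays at 2.17, 0.75 and 0.92. The arrays overlapped, and only wildtype replicate 1 lay above the knockout arrays. The difference of -0.28 ± 0.38 (SE) gave an exact permutation p of 0.9, where the smallest p possible with 3 against 3 is 0.1. Without wildtype replicate 1 it was 0.16. Where its probes lie relative to the deletion is unknown here, so the value is no check of the genotype labels.

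In the comparison of the 6 arrays, 8 genes rose in knockout and none fell (limma, adjusted p under 0.05 over 22180 genes). They make up 0.0361% of the genes, and 14.3% had an unadjusted p under 0.05, 3163 genes in all. The 8 were Mir5123, Parp6, Ogfrl1, Rnf138, Rnase12, Dis3, Tgfbi and Suz12. Mir5123 is a microRNA gene, Tgfbi encodes a matrix protein, and Suz12 encodes a subunit of Polycomb repressive complex 2. The number of genes that passed was 151 without wildtype replicate 1 (145 higher and 6 lower, with all 8 among them), 0.681% of genes. Ogfr, Hspa9, Snord87, Cnih4, Cpeb2, Rbm41, Ptpn22, Adamdec1, Plaur, Psma1, Tlr6 and Ikzf2 also passed then (limma adjusted p from 0.0263 to 0.0495). The number was 1 without wildtype replicate 2 and 7 without knockout replicate 3. Without wildtype replicate 3, knockout replicate 1 or knockout replicate 2 it was 0, with 2406, 1747 and 1671 genes at an unadjusted p under 0.05. When all 17 arrays shared 1 estimate of spread, 77 genes passed, 69 higher and 8 lower, and 5 of the 8 remained. With the 12 Dox arrays in the fit 239 were higher and 130 lower. With 16 arrays, without a marrow array that stands apart, the counts were 389 and 374, so the direction of the calls depended on the fit. Both fits take part of the spread from the Dox marrow arrays, which varied less than the esophageal wildtype arrays. After quantile normalization 1 gene passed. The 3 not called with 17 arrays were Dis3, Ogfrl1 and Rnase12.

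Mir5123 had the largest difference of the 8. It stood at 3.06, 2.87 and 3.22 in knockout and at -0.40, -0.76 and -0.40 in wildtype. Every knockout array was above every wildtype array, and the difference was 3.57 ± 0.14 (SE, limma adjusted p = 0.0064). In marrow with Dox, 1 wildtype array was at 3.21 and the other 5 arrays of both genotypes lay between 0.09 and 0.65. A high value was therefore not limited to knockout or to the esophagus. The mature microRNA, its hairpin and their place in the genome are shown because this is the gene with the largest difference. Per RefSeq on GRCm38.p6, the hairpin lies at chr4:40850056-40850138 on the minus strand and the mature microRNA at chr4:40850057-40850080, within the span of B4galt1 on the same strand (chr4:40804602-40853984). In the mature sequence the capitals mark the seed, bases 2 to 8, which pairs with target RNAs. In the hairpin they mark the mature part at its annotated place, bases 59 to 82. The same letters also stand at bases 15 to 38.
Mir5123 mature: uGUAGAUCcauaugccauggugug
Mir5123 hairpin: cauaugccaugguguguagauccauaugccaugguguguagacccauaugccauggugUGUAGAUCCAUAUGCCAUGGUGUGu
The hairpin holds the 20-base unit cauaugccaugguguguaga in 3 copies, starting at bases 1, 23 and 45. Which of these bases the probes read is unknown here. B4galt1, a galactosyltransferase gene looked up after the values were seen, stood at 0.04, 0.00 and -0.33 in knockout and at 0.08, -1.81 and 0.25 in wildtype. Its arrays overlapped, and without the low wildtype replicate 2 its difference turned from 0.40 to -0.26.

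Tgfbi encodes a secreted protein that TGF-beta induces and that links collagen to integrins. It stood at 1.79, 1.83 and 1.80 in knockout and at 0.83, 0.66 and 0.84 in wildtype. All 6 values were above 0, and the replicates of each genotype lay close together. The difference was 1.03 ± 0.08 (SE, limma adjusted p = 0.0468).

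Suz12 and Rnf138 act on chromatin and on damaged DNA. Suz12 stood at -0.42, -0.28 and -0.44 in knockout and at -2.24, -1.80 and -1.97 in wildtype, a difference of 1.62 ± 0.13. Rnf138, a ubiquitin ligase of double-strand break repair, stood at 0.33, 0.51 and 0.25 against -1.01, -1.11 and -1.25, a difference of 1.49 ± 0.11. Both had a limma adjusted p of 0.0468. The wildtype arrays were the low ones in Suz12, while its 6 marrow arrays with Dox lay between 0.01 and 0.37.

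Parp6 belongs to the family that attaches ADP-ribose to proteins. It stood at 0.56, 0.77 and 0.84 in knockout and at -1.11, -0.98 and -1.12 in wildtype, a difference of 1.79 ± 0.10 (limma adjusted p = 0.0246). Dis3, the catalytic ribonuclease of the RNA exosome, stood at -0.73, -0.60 and -0.42 against -1.86, -1.83 and -1.87, a difference of 1.28 ± 0.10 (adjusted p = 0.0468). Rnase12, of the ribonuclease A family, stood at -0.47, -0.35 and -0.93 against -3.27, -2.82 and -3.03, a difference of 2.46 ± 0.19 (adjusted p = 0.0468). In Dis3 and Rnase12 both genotypes lay below 0, the wildtype further below. Ogfrl1, a relative of the opioid growth factor receptor gene Ogfr, stood at -1.37, -1.27 and -1.68 in knockout and at -3.50, -3.64 and -3.47 in wildtype. Its difference was 2.09 ± 0.13 (adjusted p = 0.0258).

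**Figure D2:**
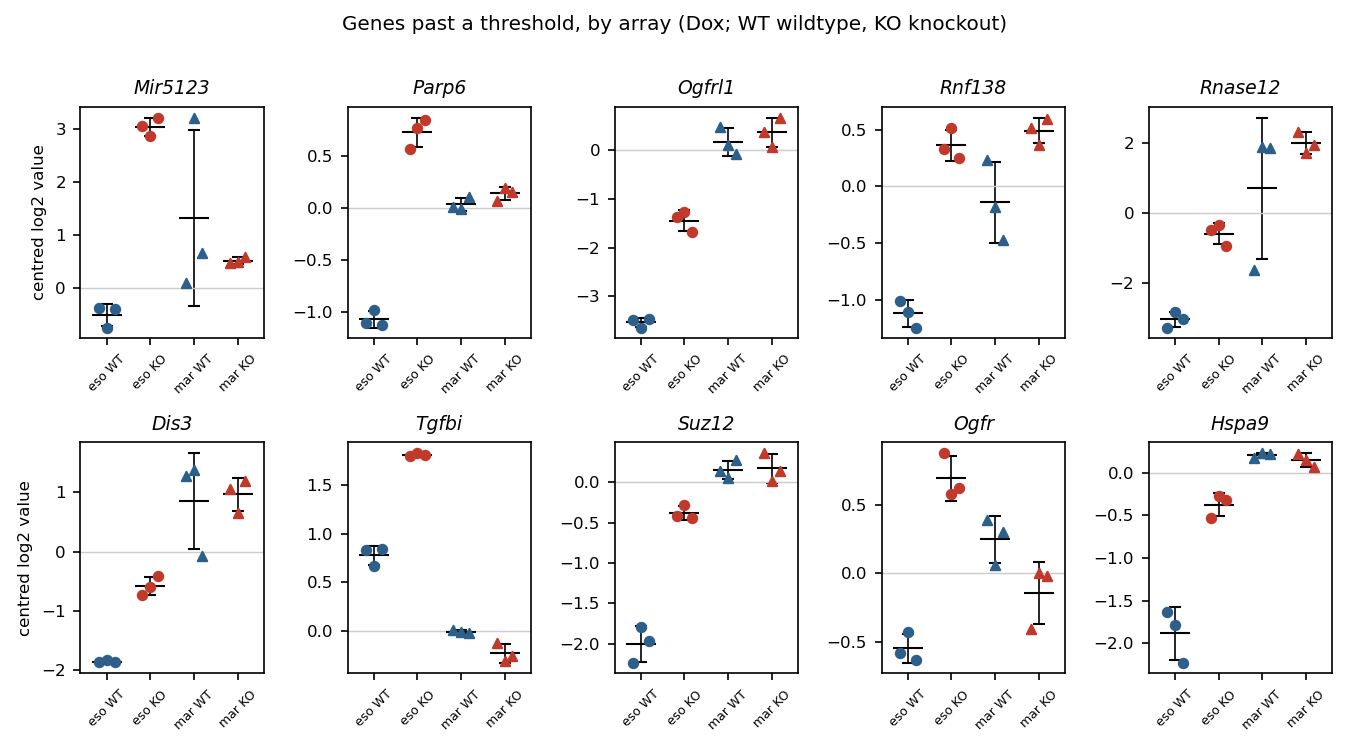
Centred log2 value (y) of each array in the esophagus (circles) and in marrow with Dox (triangles), wildtype (WT) in blue and knockout (KO) in red, for the 8 genes that rose in the esophagus and for Ogfr and Hspa9. Black bars are means ± SD of 3 arrays, and the esophageal groups do not overlap in any panel.

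Larger differences were mostly upward in knockout, whereas small ones were mostly downward. The median difference over all genes was -0.10, and -0.01 after each array was centred on its own median. The arrays of the genotypes did not overlap in 5.67% of genes with knockout higher and in 17.6% with knockout lower. After median centring these shares were 9.21% and 8.73%, and after quantile normalization 7.54% and 9.62%. Among genes with a difference of at least 1 and arrays apart, 335 (1.51%) were higher in knockout and 16 (0.0721%) lower. These counts were 426 and 8 after median centring, 216 and 44 after quantile normalization, and 759 and 35 without wildtype replicate 1. Of the 335, 259 had a wildtype esophageal mean below the mean of the Dox marrow arrays, and in 126 of these the knockout mean was above it. The other 76 had both esophageal means above marrow. The same size and separation was reached by 20 genes higher and 8 lower in marrow.

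**Figure D3:**
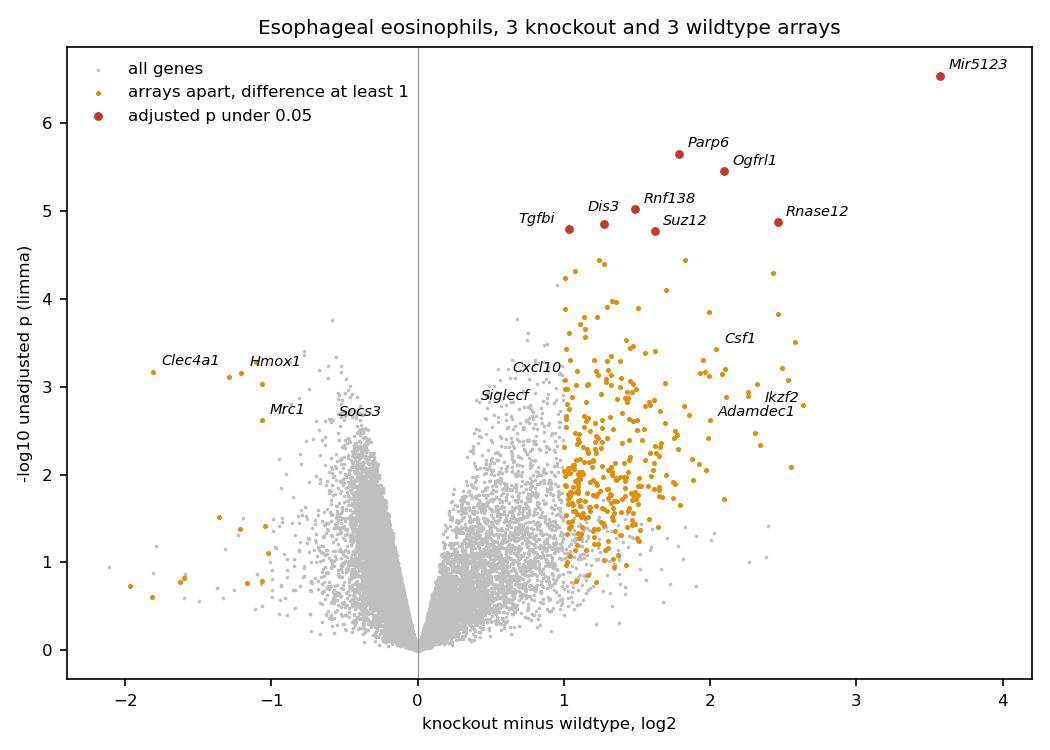
Difference of knockout minus wildtype in log2 units (x) against -log10 of the unadjusted limma p (y) for all 22180 genes in the esophagus. Red points are the 8 genes that passed, all to the right of 0, and orange points are genes with arrays apart and a difference of at least 1, of which 335 are right of 0 and 16 left.

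Other genes with a difference of at least 1 were just short of the threshold. Ogfr stood at 0.88, 0.58 and 0.62 in knockout and at -0.58, -0.43 and -0.63 in wildtype, 1.24 ± 0.11 higher (limma adjusted p = 0.0795). Cpeb2, which regulates translation of messenger RNA, was 1.08 ± 0.10 higher (adjusted p = 0.0856), and Pds5b, a regulator of cohesin, 1.70 ± 0.18 higher (adjusted p = 0.11). Cnih4, of a family of cargo receptors for protein export, was 1.27 ± 0.12 higher. The small nucleolar RNA gene Snord87 was 1.83 ± 0.17 higher, the ethanolamine kinase gene Etnk1 2.43 ± 0.24 and Rbm41, which encodes an RNA-binding protein, 1.01 ± 0.10. The 15 genes named by size and p in this direction had arrays apart by the rule that chose them.

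Of the 33 gene lists described next, chosen for the tissue and the receptor, only the list of remodelling genes had a member past the threshold, and that member was Tgfbi. In 19 of the 33 the median difference was more than 0.1 above that of all genes, and in 12 after quantile normalization. The housekeeping reference genes were among the 19, with 10 of 13 positive and a median of 0.13, or 0.06 after quantile normalization. Some genes, such as Siglecf and Itgax, are on several lists, so the 19 are not separate results. The lists are therefore described by their counts, their medians and the share of members with arrays apart, beside 5.67% higher and 17.6% lower over all genes. Of the 22180 genes, 6676 had a positive and 15504 a negative difference.

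**Figure D4:**
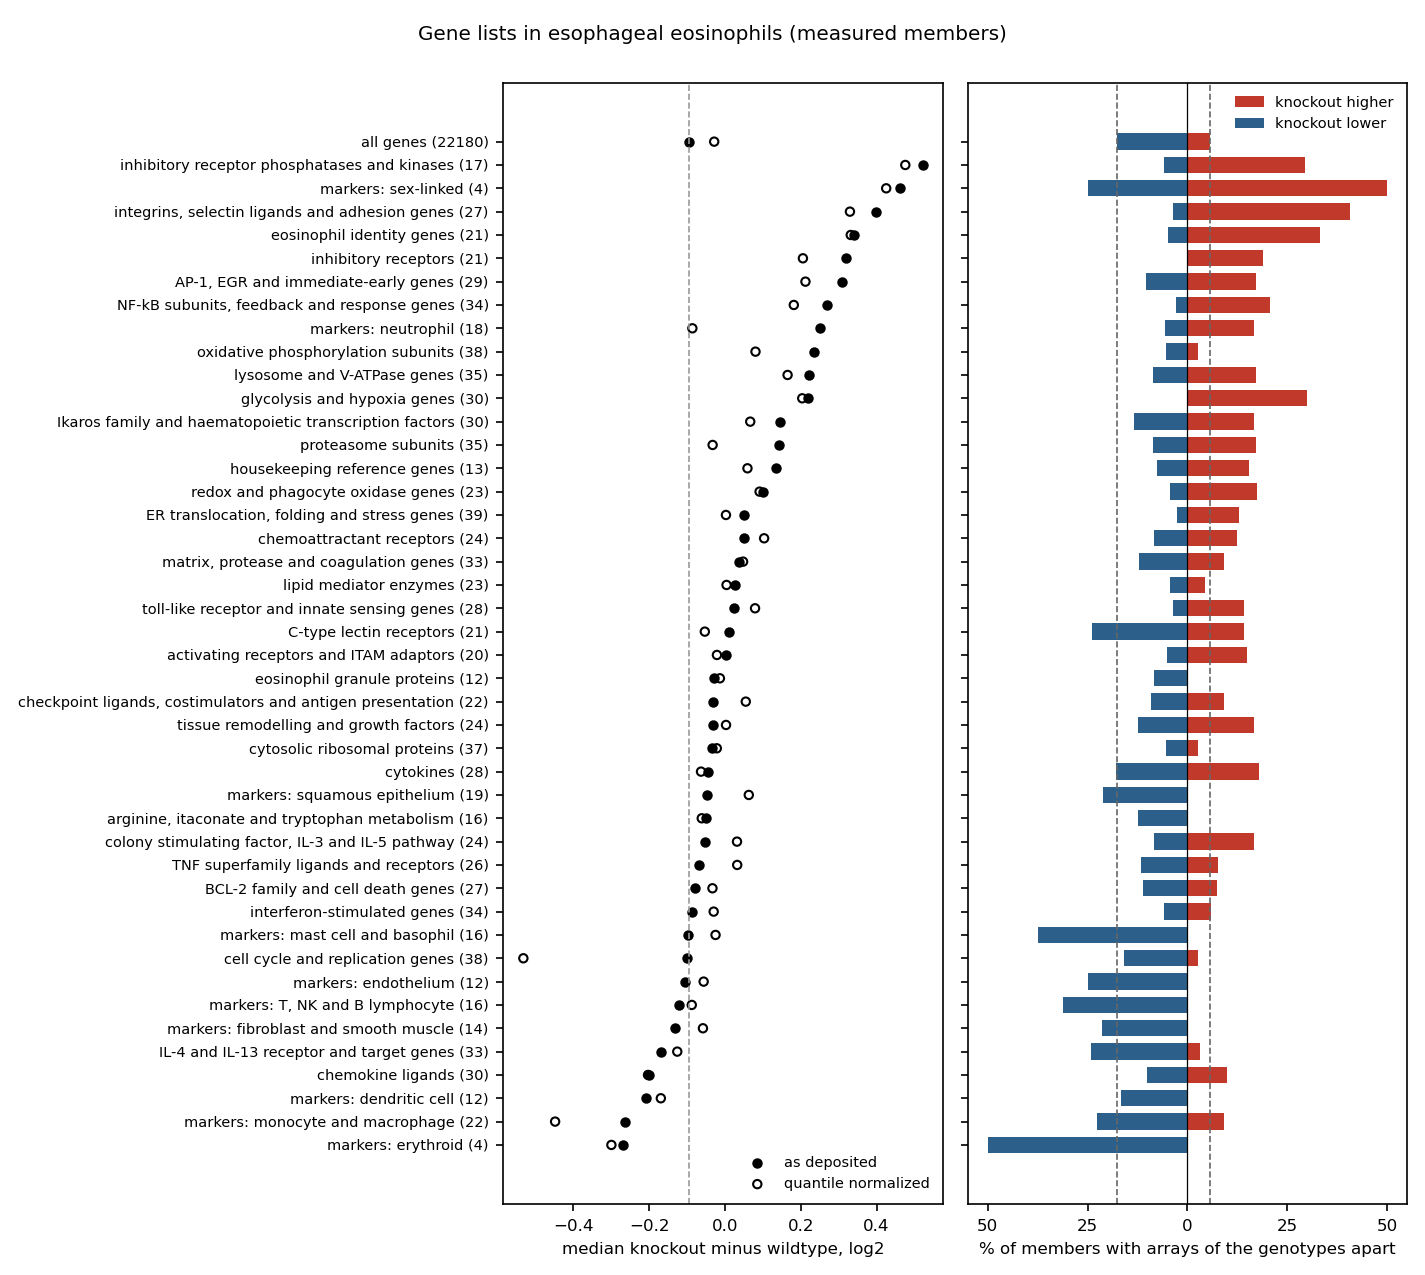
Left, median difference of knockout minus wildtype in log2 units for each gene list, as deposited (filled) and after quantile normalization (open), with the number of measured members in brackets and a dashed line at the median of all genes. Right, percentage of members whose arrays lay apart, knockout higher (red) or lower (blue), with dashed lines at the shares over all genes, 5.67% and 17.6%.

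Genes of eosinophil identity were mostly higher in knockout. Of 21 measured, 19 had a positive difference, 7 had arrays apart in that direction and 1 in the other, and the median was 0.34. The list's median was 0.84, 1.04 and 0.94 in the knockout arrays and 0.47, 0.31 and 0.37 in the wildtype arrays. Siglecf and Ccr3, whose products were used in the sort, were among the 7. Siglecf, an inhibitory lectin of eosinophils, stood at 0.77, 1.26 and 1.32 in knockout and at 0.33, 0.07 and 0.11 in wildtype, 0.95 ± 0.17 higher (limma adjusted p = 0.206). Ccr3, the eotaxin receptor, stood at 0.84, 1.04 and 0.94 against 0.47, 0.48 and 0.46, 0.47 ± 0.08 higher (adjusted p = 0.206). The wildtype arrays of Ccr3 were nearly equal, and every knockout array was above them. Il5ra, the receptor chain for the eosinophil growth factor IL-5, stood at 2.26, 2.55 and 2.71 against 1.69, 1.10 and -0.05, 1.60 ± 0.43 higher (adjusted p = 0.301). Its wildtype values spread widely, with replicate 1 nearest to knockout, and without that array the difference was 1.98. Cebpe, a transcription factor of granulocyte maturation, was 0.33 ± 0.10 higher.

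Granule genes did not share this pattern. Of 12 measured, 6 were positive and 6 negative, with a median of -0.03. Epx, the eosinophil peroxidase gene, had a mean of -2.07 ± 0.08 (SD, n = 3) in knockout and -2.01 ± 0.05 in wildtype, with overlapping arrays. That difference of -0.06 ± 0.08 turned to 0.02 after median centring. Prg2, which encodes major basic protein, stood at -1.78, -1.40 and -2.72 against -2.32, -3.89 and -3.66, with overlapping arrays and a difference of 1.32 ± 0.52. Rnase2a, an eosinophil ribonuclease gene, was the member with arrays apart downward, at 5.09, 4.86 and 5.27 against 5.67, 5.75 and 5.49. Its difference was -0.56 ± 0.13 (limma adjusted p = 0.283).

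A list of phosphatases and kinases drawn up for inhibitory receptors had the highest median of the 33 lists, 0.52. It had 13 of 17 members positive, 5 apart upward and 1 downward. Syk, Btk and Ptprc are on it too, so it does not stand for inhibitory signalling alone. The list's array medians were 0.61, 0.47 and 0.24 in knockout and 0.27, -0.01 and -0.06 in wildtype, so wildtype replicate 1 lay above knockout replicate 3. Without wildtype replicate 1 the median difference was 0.72. Ptpn22, a phosphatase that restrains antigen receptor and innate signalling, stood at 0.76, 0.86 and 0.71 in knockout and at -0.86, -0.39 and -0.39 in wildtype. Its difference was 1.33 ± 0.15 (limma adjusted p = 0.132). Ptpn2, a phosphatase of JAK and STAT proteins, was 1.02 ± 0.14 higher, and Csk, the kinase that switches off SRC-family kinases, 0.93 ± 0.17 higher. Ptpn6 encodes SHP-1, the phosphatase that PIR-B recruits. It stood at 0.15, 0.36 and 0.84 in knockout and at -0.33, -0.85 and -0.20 in wildtype, 0.91 ± 0.24 higher (adjusted p = 0.299). Ptpn11, which encodes SHP-2, stood at -0.35, -0.57 and -0.78 against -0.20, -2.52 and -1.85. Here the arrays overlapped and wildtype replicate 1 was the highest of the 6. The difference was 0.96, and 1.62 without that array.

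The inhibitory receptors themselves had a median of 0.32, with 15 of 21 positive, 4 apart upward and none downward. The 4 were Siglecf, its relatives Cd33 (0.50 ± 0.14) and Siglece (0.46 ± 0.15), and Clec4a2 (1.09 ± 0.38), an inhibitory C-type lectin receptor of myeloid cells. Their limma adjusted p values were between 0.206 and 0.33. Activating receptors and their adaptors had a median of 0.00, with 10 of 20 positive. Pilrb1, an activating receptor that pairs with DAP12, was 1.69 ± 0.28 higher (adjusted p = 0.193), and Clec4e, which senses mycobacterial and damage-derived lipids, was 0.37 ± 0.09 higher.

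Adhesion genes had the largest share of members apart upward among the 33 lists, 11 of 27 (40.7%), with 1 downward and a median of 0.40. Without wildtype replicate 1 the share was 55.6% and the median 0.57, and the shares of the phosphatase (64.7%) and identity (57.1%) lists were larger. With that array left out, 11.3% of all genes were apart upward and 37.6% downward, beside 5.67% and 17.6% with all 6 arrays. The adhesion list's array medians were 0.44, 0.53 and 0.57 in knockout and 0.53, 0.04 and 0.15 in wildtype, so wildtype replicate 1 lay among the knockout arrays. Cd47, the "don't eat me" signal, stood at -0.43, -0.59 and -0.44 in knockout and at -1.07, -1.91 and -1.34 in wildtype, 0.95 ± 0.22 higher (limma adjusted p = 0.271). Itgb2, the beta chain of the leukocyte integrins, was 0.55 ± 0.14 higher, Glg1, an E-selectin ligand, 0.61 ± 0.13, and Cd24a, a surface sialoglycoprotein, 0.40 ± 0.07. Chemoattractant receptors had a median of 0.05, with 3 of 24 apart upward and 2 downward. Ptafr, the receptor for platelet-activating factor, was 0.57 ± 0.17 higher, and S1pr4, a sphingosine phosphate receptor, differed by -0.27 ± 0.09.

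Csf1, a secreted ligand, is the growth factor of macrophages. It stood at 3.34, 2.48 and 3.58 in knockout and at 1.18, 0.98 and 1.12 in wildtype, and its 6 Dox marrow arrays lay between -0.33 and 0.01. All esophageal arrays were above marrow, and every knockout array was above every wildtype array. The difference was 2.04 ± 0.29 and the limma adjusted p 0.193 with the 6 arrays. The limma adjusted p was 0.00262 when all 17 arrays, most of them from marrow, set the spread. Its receptor gene Csf1r had overlapping arrays, with a difference of 0.25 ± 0.41 that was -0.04 without wildtype replicate 2 and 0.63 without replicate 1. The pathway of Csf1, IL-3 and IL-5 as a list had 4 of 24 members apart upward and 2 downward, and Socs3, a feedback inhibitor of cytokine signalling, differed by -0.60 ± 0.12. Stat5b, which carries the IL-5 signal to the nucleus, was 0.91 ± 0.27 higher.

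Cytokine genes were split, with 5 of 28 apart upward and 5 downward. Tnf, a proinflammatory cytokine, stood at 2.92, 1.30 and 2.70 in knockout and at -0.24, 0.41 and 1.10 in wildtype. The lowest knockout array was just above the highest wildtype array, and the difference was 1.89 ± 0.53 (limma adjusted p = 0.304). Il1a, an alarmin, stood high in both, at 5.63, 5.27 and 5.38 against 4.96, 5.03 and 5.02, with a difference of 0.42 ± 0.11. Il25, an epithelial cytokine that promotes type 2 responses, differed by -0.26 ± 0.08. Chemokine ligands had a median of -0.20, with 9 of 30 positive and 3 apart each way. Cxcl10, which attracts T cells through CXCR3, stood at 1.74, 0.98 and 1.30 in knockout and at 0.15, 0.18 and 0.21 in wildtype, 1.16 ± 0.19 higher (adjusted p = 0.193). Ppbp, a platelet chemokine precursor, was 1.39 ± 0.47 higher. Ccl2, which attracts monocytes, went the other way at 0.82, 1.24 and 1.21 against 2.90, 1.67 and 1.68. Its difference was -0.99 ± 0.36 (adjusted p = 0.337), and wildtype replicate 1 was the high array, without which it was -0.58.

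Remodelling and growth factor genes had 4 of 24 members apart upward and 3 downward, with a median of -0.03. Beside Tgfbi, the angiogenic factor Vegfa was 0.97 ± 0.29 higher (limma adjusted p = 0.312) and Hgf, the hepatocyte growth factor, 1.23 ± 0.48 higher (adjusted p = 0.342). Pdgfa, a growth factor of mesenchymal cells, differed by -0.39 ± 0.13. Genes of proteases, matrix and coagulation were 3 of 33 apart upward and 4 downward. Adamdec1, a secreted metalloprotease, stood at 3.35, 3.39 and 3.56 in knockout and at 2.19, 1.08 and 0.71 in wildtype, 2.11 ± 0.37 higher (adjusted p = 0.206). Its knockout arrays were close together and wildtype replicate 1 was the nearest to them. Without that array the difference was 2.54 and the adjusted p 0.0263. Plaur, the urokinase receptor gene, was 1.00 ± 0.29 higher, Adam10 0.68 ± 0.17 higher and Thbd, which encodes thrombomodulin, differed by -0.69 ± 0.14.

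Genes of the NF-kB pathway had a median of 0.27, with 26 of 34 positive, 7 apart upward and 1 downward. After quantile normalization the median was 0.18 and 3 (8.82%) were apart upward, near the 7.54% of all genes, and without wildtype replicate 1 the median was 0.43. The list's array medians were 1.25, 1.01 and 0.88 in knockout and 1.12, 0.41 and 0.49 in wildtype, so wildtype replicate 1 again lay among the knockout arrays. Tnip3, a partner of the NF-kB inhibitor A20, stood at 2.23, 0.94 and 1.45 in knockout and at -0.01, 0.01 and 0.13 in wildtype, 1.50 ± 0.31 higher (limma adjusted p = 0.241). Nfkbie and Nfkbid, inhibitors of the IkB family, were 0.91 ± 0.33 and 0.55 ± 0.17 higher, and the activation marker Cd83 differed by -0.36 ± 0.11. Immediate-early genes had a median of 0.31, with 5 of 29 apart upward and 3 downward. Ier5 was 0.89 ± 0.14 higher, Jun, a subunit of AP-1, 1.23 ± 0.35, and Dusp5, a phosphatase of ERK, 0.64 ± 0.14. Klf2, a transcription factor of quiescence, differed by -0.46 ± 0.13.

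**Figure D5:**
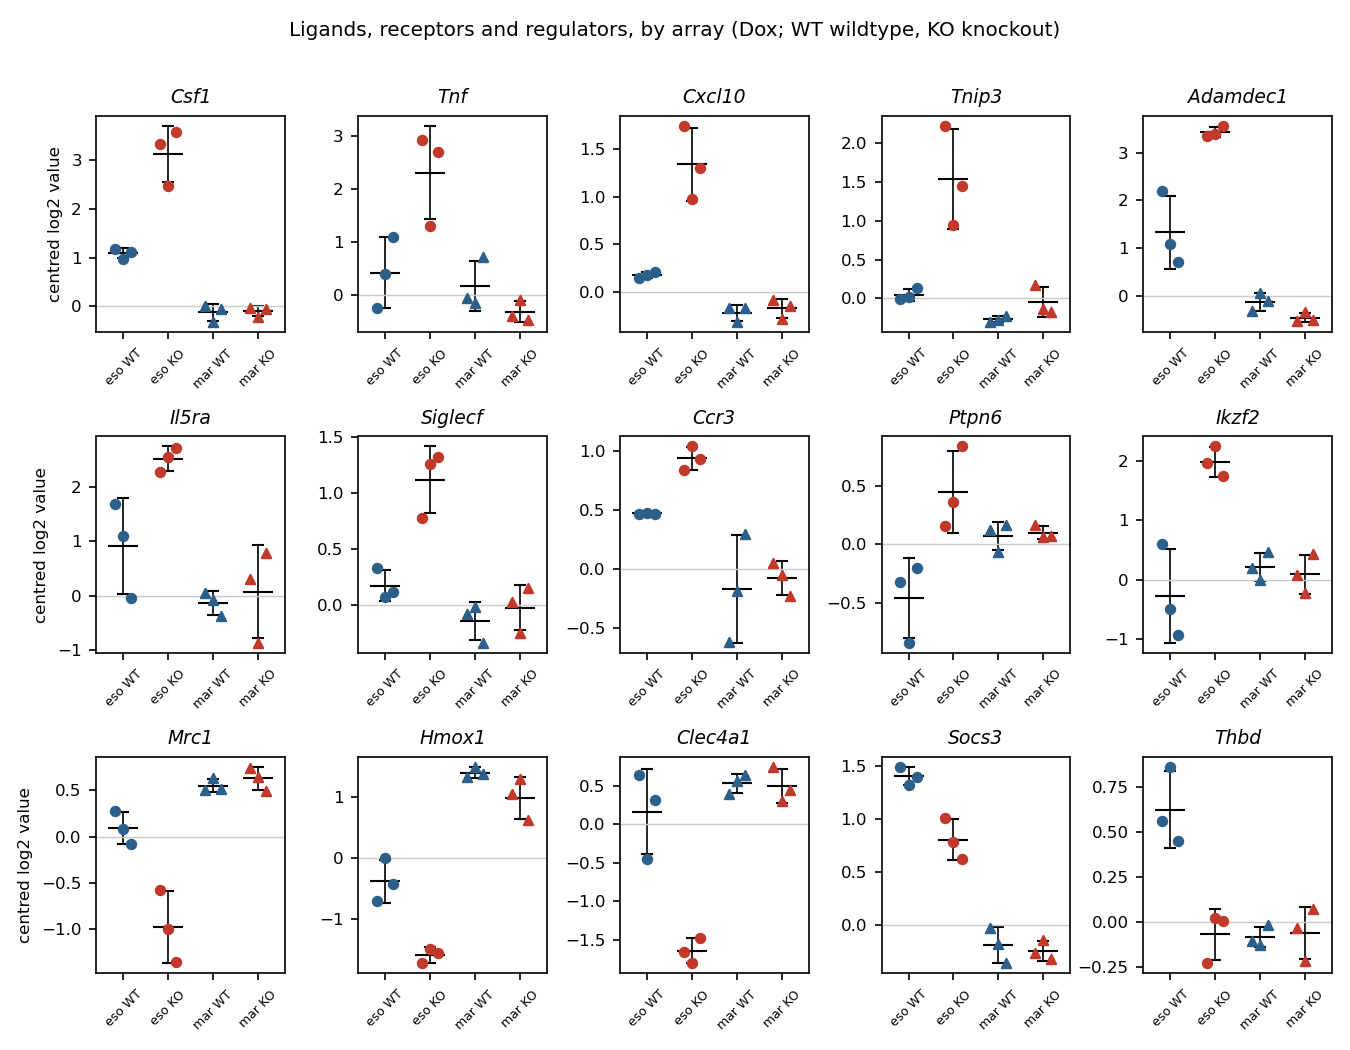
Centred log2 value (y, a different scale in each panel) of each array in the esophagus (circles) and in marrow with Dox (triangles), wildtype (WT) in blue and knockout (KO) in red, for 15 ligand, receptor and regulator genes. Black bars are means ± SD of 3 arrays. Only genes whose esophageal arrays lay apart are drawn, with knockout higher in the first 10 and lower in the last 5, so the lack of overlap follows from the choice. Pirb, Csf1r, Ptpn11, Epx and Prg2, whose arrays overlapped, are not drawn.

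The promoters of Csf1, Cxcl10 and Tnip3 are shown. In each gene the 3 wildtype arrays lay close together and below all knockout arrays, and the promoter held letters of the NF-kB motif. Dis3 met both conditions too and is not shown, so these 3 are a choice made with values and matches known. Each promoter shown is the 250 bases before the RefSeq start on GRCm38.p6, read 5′ to 3′ in the direction of the gene. Csf1 is on the minus strand at chr3:107760470-107760719, Cxcl10 on the minus strand at chr5:92348890-92349139, and Tnip3 on the plus strand at chr6:65590148-65590397. Capitals mark motif matches on either strand.
Csf1 promoter: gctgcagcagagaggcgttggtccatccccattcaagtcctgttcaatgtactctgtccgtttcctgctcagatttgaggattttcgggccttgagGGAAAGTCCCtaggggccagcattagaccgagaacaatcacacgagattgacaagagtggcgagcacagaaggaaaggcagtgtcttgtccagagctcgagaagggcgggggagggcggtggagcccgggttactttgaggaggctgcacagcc
Cxcl10 promoter: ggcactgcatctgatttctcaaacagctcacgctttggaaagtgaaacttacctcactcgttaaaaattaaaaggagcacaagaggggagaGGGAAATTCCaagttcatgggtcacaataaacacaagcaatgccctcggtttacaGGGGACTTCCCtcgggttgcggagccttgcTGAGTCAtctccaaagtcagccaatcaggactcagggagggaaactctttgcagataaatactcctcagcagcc
Tnip3 promoter: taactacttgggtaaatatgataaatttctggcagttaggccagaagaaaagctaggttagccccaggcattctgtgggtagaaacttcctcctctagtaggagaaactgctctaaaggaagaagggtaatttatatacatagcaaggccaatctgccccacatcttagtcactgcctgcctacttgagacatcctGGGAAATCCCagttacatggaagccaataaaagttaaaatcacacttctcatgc
The Csf1 promoter held 1 NF-kB match, which begins at -154 from the start, and the Tnip3 promoter 1 match, which begins at -54. The Cxcl10 promoter held 3 NF-kB matches, of which 2 overlap in 1 stretch, and 1 match to the AP-1 letters TGANTCA. Promoters were searched in 10 genes, of which 4 held an NF-kB match, the fourth being Dis3. Over 32851 promoters of the same length, 7.25% held an NF-kB match, 6.75% an AP-1 match and 5.85% a match to the STAT6 motif. The promoter of Suz12 alone of the 10 held a STAT6 match. A match is a run of letters and says nothing on binding, and the 10 genes were chosen with their values known.

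Glycolysis and hypoxia genes were 9 of 30 apart upward and none downward, with 23 positive and a median of 0.22. Slc2a3, a glucose transporter gene, stood at 1.43, 0.91 and 0.93 in knockout and at -0.16, 0.33 and -0.01 in wildtype, 1.04 ± 0.19 higher (limma adjusted p = 0.221). The glycolytic enzyme gene Tpi1 stood at 0.04, -0.25 and -1.01 against -1.57, -2.29 and -2.43, 1.69 ± 0.34 higher (adjusted p = 0.228). Hif1a, the hypoxia-inducible transcription factor, was 0.97 ± 0.24 higher. Oxidative phosphorylation subunits had a median of 0.23, with 1 of 38 apart upward and 2 downward. After quantile normalization the medians of the lists were 0.20 and 0.08.

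Genes of protein and organelle turnover were mixed. Proteasome subunits had 6 of 35 apart upward and 3 downward, and their median of 0.14 turned to -0.03 after quantile normalization. Psma1, of the core, was 1.30 ± 0.20 higher, and Psmd11, of the regulatory lid, 1.45 ± 0.29, while Psmd1, of the regulatory base, differed by -0.39 ± 0.11. Lysosomal genes had 6 of 35 apart upward and 3 downward, with a median of 0.22, and the V-ATPase subunit Atp6v1e1 was 0.84 ± 0.20 higher. Genes of the endoplasmic reticulum had 5 of 39 apart upward and 1 downward, with a median of 0.05, or 0.003 after quantile normalization. Among them, the translocation gene Tram1 stood at -0.99, -0.64 and -1.41 in knockout and at -3.62, -2.68 and -2.72 in wildtype. Its difference was 1.99 ± 0.32 (limma adjusted p = 0.193). Atf6, a sensor of unfolded proteins, was 1.75 ± 0.38 higher. Redox genes had 4 of 23 apart upward and 1 downward. The downward one was Hmox1 (-1.21 ± 0.19), described below, and Sod1, the cytosolic superoxide dismutase, was 0.47 ± 0.13 higher.

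Of 27 BCL-2 family and death genes 2 were apart upward and 3 downward. Pmaip1 (Noxa), a promoter of apoptosis, stood at 2.81, 2.52 and 1.71 in knockout and at 1.06, 0.50 and 0.51 in wildtype, 1.66 ± 0.31 higher (limma adjusted p = 0.224). Mcl1, a survival factor, was 0.25 ± 0.10 higher, and Bcl2l2, another, differed by -0.20 ± 0.07. Interferon-stimulated genes had 2 of 34 apart each way (5.88%, beside 5.67% upward and 17.6% downward over all genes), and Isg15, a ubiquitin-like modifier, was 1.30 ± 0.38 higher. Innate sensors had 4 of 28 apart upward and 1 downward, among them Cd14 (0.95 ± 0.24) and the toll-like receptor genes Tlr13 (1.53 ± 0.44) and Tlr6 (1.75 ± 0.54).

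Checkpoint and antigen presentation genes had 2 of 22 apart upward and 2 downward. Cd274, which encodes the checkpoint ligand PD-L1, was 0.82 ± 0.22 higher and the costimulator Cd80 1.65 ± 0.48 higher, while the MHC class II gene H2-Ab1 differed by -0.51 ± 0.14. Lineage transcription factors had 5 of 30 apart upward and 4 downward, with a median of 0.15, or 0.07 after quantile normalization. Among them, Ikzf2 (Helios) stood at 1.96, 2.25 and 1.75 in knockout and at 0.61, -0.49 and -0.93 in wildtype. Its difference was 2.26 ± 0.40 (limma adjusted p = 0.206). Wildtype replicate 1 was the nearest to knockout, and without it the difference was 2.70 (adjusted p = 0.0269). C-type lectin receptors had 3 of 21 apart upward and 5 downward, TNF superfamily genes 2 of 26 and 3, and enzymes of lipid mediators 1 of 23 each way.

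Of 33 IL-4 and IL-13 receptor and target genes, 21 were negative, a smaller share than over all genes, with 8 apart downward, 1 upward and a median of -0.17. The 24.2% apart downward compares with 17.6% of all genes, after median centring 18.2% compares with 8.73%, and after quantile normalization 9.09% compares with 9.62%. Mrc1, the mannose receptor of alternatively activated macrophages, stood between -1.35 and -0.58 in knockout and at 0.27, 0.08 and -0.08 in wildtype. Its difference was -1.07 ± 0.21 (limma adjusted p = 0.224). Pdcd1lg2, which encodes the checkpoint ligand PD-L2, differed by -0.29 ± 0.09, and Ch25h, a cholesterol hydroxylase gene, by -0.23 ± 0.09.

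The naming rule gave 11 genes in the downward direction. Clec4a1, a C-type lectin receptor, stood at -1.66, -1.80 and -1.47 in knockout and at 0.64, -0.45 and 0.31 in wildtype, a difference of -1.81 ± 0.28 (limma adjusted p = 0.193). Hmox1, the heme-degrading enzyme heme oxygenase, stood at -1.72, -1.48 and -1.55 against -0.71, -0.01 and -0.43, a difference of -1.21 ± 0.19. In marrow with Dox, Hmox1 lay between 0.62 and 1.49, above both esophageal groups. Fkbp7, a protein-folding enzyme of the endoplasmic reticulum, differed by -1.11 ± 0.17, and Gapt, an adaptor that binds GRB2, by -1.07 ± 0.18. These 3 also had an adjusted p of 0.193. None of the 11 passed, and in 6 of them 1 wildtype array carried much of the difference. Without wildtype replicate 1 the differences of Hal, a histidine-degrading enzyme gene, Plxdc2, Crybg3 and the small nucleolar RNA gene Snord11 went from -1.17, -1.07, -1.02 and -1.21 to -0.25, -0.26, -0.46 and -0.72. In Ifnb1 and Sln it was wildtype replicate 2. Ifnb1, the interferon beta gene, stood at 5.05 there and between -0.15 and 0.31 in the other 5 arrays, and Sln, the muscle gene sarcolipin, at 5.22 there and between -0.08 and 0.06 in the others.

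Cell cycle genes had 6 of 38 apart downward (15.8%) and 1 upward, close to the background, with a median of -0.10 equal to that of all genes. After quantile normalization the median was -0.53 and 63.2% were apart downward. All 6 esophageal arrays had low list medians, between -1.83 and -1.64. Kif22, a mitotic kinesin, stood at -1.61, -1.77 and -1.63 in knockout and at -1.04, -0.97 and -0.57 in wildtype, a difference of -0.81 ± 0.14 (limma adjusted p = 0.206). Cytosolic ribosomal protein genes had 1 of 37 apart upward and 2 downward, and genes of arginine, itaconate and tryptophan metabolism none of 16 upward and 2 downward.

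Markers of other cells that a digest of the esophagus can hold, apart from those of neutrophils, were mostly lower in knockout, as were 15504 of all 22180 genes. Of 22 monocyte and macrophage markers, 17 were negative, 5 apart downward (22.7%, beside 17.6% of all genes) and 2 upward, with a median of -0.26. The list's array medians were -0.35, -0.32 and -0.18 in knockout and 0.26, 0.04 and -0.05 in wildtype, so the genotypes lay apart. C1qb and C1qc, complement genes of tissue macrophages, differed by -0.61 ± 0.09 and -0.51 ± 0.13 (limma adjusted p = 0.193 and 0.295). Mrc1 is on this list too. The other way went 5 members, among them Cd14 and Csf1r, whose values are given above. In sorted bulk samples fewer macrophages and less of their RNA per cell cannot be told apart, and the part of these markers in the lower values of Mrc1, Hmox1 and Clec4a1 was not tested. The values are centred, so whether any of these markers is at 0 cannot be read. Mast cell and basophil markers had 6 of 16 apart downward and none upward, with Cpa3, a mast cell protease, at -0.40 ± 0.12. Lymphocyte markers had 5 of 16 apart downward and none upward, among them Pax5, a B cell factor, at -0.55 ± 0.19. After median centring the downward shares were 12.5% of mast cell and basophil and 18.8% of lymphocyte markers, beside 8.73% of all genes. Neutrophil markers were 3 of 18 apart upward and 1 downward, and their median of 0.25 turned to -0.09 after quantile normalization. Ltf, a secondary granule gene, was 0.60 ± 0.12 higher, and Elane, a primary granule protease gene, differed by -0.54 ± 0.09. Epithelial (4 of 19), fibroblast (3 of 14) and endothelial (3 of 12) markers had members apart downward and none upward. Their medians were -0.05, -0.13 and -0.11, and the epithelial median turned to 0.06 after quantile normalization. Dendritic cell markers had 2 of 12 and erythroid markers 2 of 4 apart downward, with none upward.

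Some sex-linked genes differed in level between the genotypes. Mice of both sexes were used, and the labels do not give the sex behind a sample. Uty, a Y-linked demethylase gene, stood at 0.28, 0.41 and -0.28 in knockout and at -0.69, -0.94 and -0.60 in wildtype. Kdm5d, another, stood at 1.10, 0.37 and -0.29 against -0.33, -1.42 and -1.10 and was apart by a narrow margin. Eif2s3y, also Y-linked, overlapped, with a difference of 0.04 ± 0.44 that was negative without wildtype replicate 2 or 3 or knockout replicate 1. Xist, the RNA of the inactive X, differed by -0.15 ± 0.08. Its arrays lay apart downward, as in 17.6% of all genes, but not after median centring. With the Y-linked genes' mean as a covariate no gene passed (limma, 1307 at an unadjusted p under 0.05), and all 8 genes that rose stayed positive. Of 13 measured reference genes 10 were positive, 2 apart upward and 1 downward, with a median of 0.13. The 2 were Actb (0.71 ± 0.25) and Hprt (1.34 ± 0.66), which was low in wildtype replicate 2 (-3.78). Both were picked with their values known. The part of sex and of these reference genes in the results was not tested otherwise.

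The same genotypes were compared in marrow eosinophils of mice fed Dox, to learn whether a difference belongs to the tissue. No gene passed in marrow (0% of 22180, limma), while 1397 had an unadjusted p under 0.05. The marrow arrays lay apart in 4.11% of genes with knockout higher and 7.62% with knockout lower. The test of the difference between tissues, over 12 arrays, passed for 5 genes (0.0225%), and in each the knockout minus wildtype difference was larger in the esophagus. Parp6 stood in marrow at 0.07, 0.19 and 0.15 in knockout and at 0.01, -0.01 and 0.11 in wildtype, and the tissues differed by 1.69 ± 0.12 (limma adjusted p = 0.000994). Tgfbi stood at -0.12, -0.31 and -0.26 in knockout marrow and at 0.01, -0.01 and -0.03 in wildtype marrow, opposite in sign to the esophagus, and the tissues differed by 1.25 ± 0.10 (adjusted p = 0.00169). Suz12 differed between tissues by 1.60 ± 0.18 (adjusted p = 0.0273), Ogfr by 1.64 ± 0.19 (adjusted p = 0.0336) and Hspa9, a mitochondrial chaperone gene, by 1.57 ± 0.19 (adjusted p = 0.0427). Hspa9 stood at -0.53, -0.28 and -0.32 in esophageal knockout, at -1.63, -1.79 and -2.23 in esophageal wildtype and between 0.06 and 0.23 in marrow. The count was 207 without esophageal wildtype replicate 1, 17 without wildtype replicate 2, 10 without wildtype replicate 3 and 18 without esophageal knockout replicate 3. It was 2 without esophageal knockout replicate 1, marrow wildtype replicate 1 or 3 or marrow knockout replicate 3, and 3 without marrow knockout replicate 2. For Csf1 the tissues differed by 2.02 ± 0.33 (adjusted p = 0.125) and for Adamdec1 by 2.44 ± 0.42 (adjusted p = 0.146), so neither is shown to differ between tissues. The same holds for Mir5123, at 4.38 ± 0.87 (adjusted p = 0.273).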

How the data were processed

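Per the submitters' processing notes, Affymetrix Expression Console (version not named) processed these 1-colour arrays. The values are the log2 values that the authors deposited (the log base is not stated and was taken as 2), with no column unused. In 97.08% of 33793 probe sets the values were centred on a median array (tolerance 2e-05), so no filter on dim probes was possible. Probe sets with 1 gene symbol (23521, with 1814 having several and 8458 none) were named through Entrez identifiers in RefSeq GRCm38.p6 (23328 matched) and averaged to 22180 genes, of which 1082 had several.

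Knockout minus wildtype was tested on the 6 esophageal arrays with limma 3.58.1 (R 4.3.3; lmFit and eBayes, two-sided, Benjamini-Hochberg over all genes, threshold 0.05). The same test used the 6 Dox marrow arrays, and 12 arrays gave the interaction with tissue. Pirb had an exact permutation test. SEs are from limma. The fits were tested on simulated data. Arrays count as apart when every knockout value is above, or every one below, all wildtype values. The number of arrays limits the precision.

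The comparison, the 33 gene lists and 10 marker lists were chosen with earlier results of these data known. B4galt1, Actb and Hprt were added after their values were seen. Genes named were those past a threshold, the 15 with the smallest p in each direction among those apart by at least 1 (11 were lower, symbols of predicted, olfactory, vomeronasal and microRNA genes left out), up to 4 by p from each list, and a fixed set of receptor, phosphatase and sex-linked genes. Alternatives were other scalings, other sets of arrays in the fit, other probe set rules, a replicate block, a Y-linked covariate, array weights, robust moderation and leaving out each array.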

Additional observations from a re-analysis of the deposited data

Results flagged for a closer look

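The genotype difference was larger in the esophagus than in Dox marrow, by limma's test of the difference over 12 arrays, in 5 genes. By size, the difference between tissues was 1.69 for Parp6, 1.25 for Tgfbi, 1.60 for Suz12, 1.64 for Ogfr and 1.57 for Hspa9, each higher in 3 of 3 esophageal knockout arrays. Their cause was not tested.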

How the results depend on the processing

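The esophageal count of 8 genes was 77 with all 17 arrays in the fit, 369 with the 12 Dox arrays, 763 with 16 arrays (without the marrow array that stands apart), 1 after quantile normalization, 3 with probe sets tested singly, and 0 with the Y-linked covariate. It ranged from 0 to 151 when 1 array was left out. With the replicate block it was 0, and the interaction count of 5 was 0. Same-number correlations of the deviations from group means were 0.0554, -0.0902 and 0.0492 between genotypes in the esophagus. Between esophagus and marrow of 1 genotype they ran from -0.0566 to 0.119. The labels do not say whether a number marks paired samples, and these few values cannot settle it. The interaction count was 1 with 17 arrays and ranged from 2 to 207 when 1 array was left out. The marrow count was 0 in each setting run. The 19 lists with a median more than 0.1 above all genes were 12 after quantile normalization, and Pirb ranged from -0.55 to 0.16 when 1 array was left out. Differences that changed sign were Epx after median centring (0.0235), and with the Y-linked covariate Epx (0.0126), Csf1r (-0.57), Eif2s3y (-0.93), B4galt1 (-0.20) and Ptpn11 (-0.0877). With 1 array left out, Csf1r ranged from -0.0442 to 0.63, B4galt1 from -0.26 to 0.77 and Eif2s3y from -0.27 to 0.46. The cause was not tested. The 3 arrays of each group and centred values limit what can be read, since brightness over background is unknown.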
